A study of Mus musculus with 12 samples.

Results

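A set of 9 interferon-inducible GTPases was followed in the colon RNA of mice with chemically induced colitis: Gbp2, Gbp3, Gbp5, Gbp6, Gbp7, Irgm1, Irgm2, Igtp and Iigp1. They were taken by symbol from the gene names of the GRCm38 annotation, and 9 of 9 were found among the 54532 genes of each count file. All 9 passed the filter on low counts, as part of 17658 tested genes.

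Colon RNA of male C57BL/6 mice, aged 6 weeks and acclimated for a week, was sequenced in 12 libraries, 3 in each of 4 groups. The Con group carried no DSS or UA, and the labels call it untreated where the methods give a vehicle gavage. The DSS group drank 3% (w/v) dextran sulfate sodium, a polymer that injures the colon epithelium, for 5 days. The UA+DSS group received the same DSS and 200 mg/kg ursolic acid (UA, a plant triterpenoid) by gavage from 1 day before DSS, and the DSS+UA group received both with UA from 3 days after DSS began. The methods give 7 days of UA for UA+DSS and 4 days for DSS+UA, where the discussion gives 9 and 5 days. The labels do not say whether each library is a separate mouse, and names such as DSS 2 give the group and the replicate number.

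Interferons bind receptors on cells and switch on GTPases of several families. Of these the guanylate-binding proteins (GBPs) and the immunity-related GTPases (IRGs) are strongly induced by interferon gamma. GBPs are large GTPases that assemble on pathogen vacuoles and on bacteria in the cytosol, and Gbp2 and Gbp5 are known for their part in inflammasome activation. Among the IRGs, Iigp1 is an effector that attacks the vacuole membrane, while Irgm1, Irgm2 and Igtp (also called Irgm3) are regulators that guard the cell's own membranes and keep the effectors inactive. In the gut, loss of Irgm1 is known to disturb Paneth cells and to worsen experimental colitis.

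Gbp2 (ENSMUSG00000028270), Gbp3 (ENSMUSG00000028268), Gbp5 (ENSMUSG00000105504) and Gbp7 (ENSMUSG00000040253) lie side by side on the plus strand of chromosome 3 of GRCm38, at chr3:142620602-142638008, chr3:142560026-142573209, chr3:142493978-142522344 and chr3:142530342-142550149. Gbp6 (ENSMUSG00000104713) lies on the minus strand at chr5:105270702-105293698. Irgm1 (ENSMUSG00000046879) lies on the minus strand at chr11:48861968-48871683. Irgm2 (ENSMUSG00000069874, chr11:58199618-58222782) and Igtp (ENSMUSG00000078853, chr11:58199556-58207591) overlap on the plus strand and share 162 exon bases. Iigp1 has the identifier ENSMUSG00000054072. Counts of Gbp6 are uncertain, since 70.7% of its 50-base stretches also occur in other genes (Gm43302, Gbp10, Gbp4 and Gbp11) and it shares 1726 exon bases with Gm43302. The share was 12.7% for Gbp7, which overlaps Gm43802, 11.8% for Igtp and 7.8% for Irgm2, and 0.4% to 3.8% for the other 5 genes.

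Promoter windows, from 250 bases before to 50 bases after the start of a transcript, were given by RefSeq (GRCm38.p6) for 7 of the 9 genes. They were searched on both strands for the core of the interferon-stimulated response element (GAAANNGAA, or TTCNNTTTC on the other strand), which IRF factors bind, and for the gamma-activated site (TTCNNNGAA, the same on both strands), an element of genes induced by interferon gamma. The first was present in a window of all 7 genes, against 8.56% of 32851 windows of all genes. The second was present in 4 of the 7 (Gbp5, Gbp7, Igtp and Irgm2), against 8.3% of all windows. Gbp2 held the response element core 58 bases before its start, and Gbp3 held it at 44 and at 38 bases before. The other 5 windows are shown because Gbp5 and its neighbour Gbp7 held both motifs but had different levels across the groups below, and because the near-copies Igtp and Irgm2 can be set beside the third regulator, Irgm1. Capitals mark every match.
Gbp5, chr3:142496684-142496983, plus strand: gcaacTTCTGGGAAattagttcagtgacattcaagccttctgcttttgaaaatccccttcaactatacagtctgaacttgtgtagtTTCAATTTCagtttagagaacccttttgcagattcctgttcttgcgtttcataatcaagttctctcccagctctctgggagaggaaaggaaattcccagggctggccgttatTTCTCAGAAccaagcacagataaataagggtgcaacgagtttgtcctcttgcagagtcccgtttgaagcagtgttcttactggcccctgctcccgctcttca
Gbp7, chr3:142530086-142530385, plus strand: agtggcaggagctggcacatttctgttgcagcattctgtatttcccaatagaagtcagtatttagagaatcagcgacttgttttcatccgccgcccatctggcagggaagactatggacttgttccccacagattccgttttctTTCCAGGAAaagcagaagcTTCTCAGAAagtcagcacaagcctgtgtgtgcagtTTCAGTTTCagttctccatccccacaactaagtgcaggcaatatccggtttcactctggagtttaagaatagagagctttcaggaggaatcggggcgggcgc
Irgm1, chr11:48871371-48871670, minus strand: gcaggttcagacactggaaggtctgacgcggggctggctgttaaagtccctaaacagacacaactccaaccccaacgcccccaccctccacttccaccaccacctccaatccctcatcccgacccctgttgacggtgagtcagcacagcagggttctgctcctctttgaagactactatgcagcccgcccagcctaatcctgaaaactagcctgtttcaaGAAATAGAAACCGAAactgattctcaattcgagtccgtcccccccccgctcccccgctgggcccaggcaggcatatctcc
Igtp, chr11:58199306-58199605, plus strand: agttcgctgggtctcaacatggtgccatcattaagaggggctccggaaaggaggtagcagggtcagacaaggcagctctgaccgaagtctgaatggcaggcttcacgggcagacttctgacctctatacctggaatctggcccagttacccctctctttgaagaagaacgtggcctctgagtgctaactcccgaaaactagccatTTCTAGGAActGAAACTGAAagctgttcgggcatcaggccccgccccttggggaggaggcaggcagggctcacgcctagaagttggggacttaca
Irgm2, chr11:58214727-58215026, plus strand: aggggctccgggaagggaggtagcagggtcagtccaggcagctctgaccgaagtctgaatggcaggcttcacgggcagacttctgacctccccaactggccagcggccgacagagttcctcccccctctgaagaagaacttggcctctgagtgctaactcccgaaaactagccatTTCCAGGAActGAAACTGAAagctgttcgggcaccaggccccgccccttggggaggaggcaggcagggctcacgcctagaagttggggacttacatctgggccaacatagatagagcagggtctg
Gbp5 held gamma-activated sites at 245 and 52 bases before its start and the response element core at 164. Gbp7 held the sites at 106 and 87 bases and the core at 52. In Igtp the site began 45 and the core 34 bases before the start, and in Irgm2 they began 75 and 64 bases before, with 2 bases between them in each. These windows of Igtp and Irgm2 were 92.1% identical over 265 aligned bases. Irgm1 held the core at 30 and at 24 bases, partly overlapping, and no gamma-activated site in this window. A match is only a run of letters and was not tested for binding.

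The 12 libraries held 15566216 to 19498383 counts, of which the 9 genes together took 0.015% (DSS 3) to 0.0747% (UA+DSS 1). Levels are in CPM, counts of a gene per 1000000 counts of the library, whose size was corrected with TMM factors of 0.871 to 1.09. The 8 epithelial markers, which check the tissue, summed to 10475 to 18519 CPM in Con, 5944 to 10943 in DSS, 17389 to 20383 in UA+DSS and 12232 to 17795 in DSS+UA. Several libraries stood apart. In DSS 3 the 6 markers of pancreatic acinar cells summed to 13658 CPM, against 31.1 to 555 CPM in the other 11. In DSS 2 the 6 neutrophil markers summed to 17231 CPM, against 863 CPM in DSS 1 and 943 CPM in DSS 3. Hox genes of the proximal colon summed to 85.2 to 222 CPM in UA+DSS and to 3.96 to 31.3 CPM in the other groups, and those of the distal colon to 5.71 to 14.8 CPM in UA+DSS and to 63.2 to 789 CPM elsewhere, with Con 1 (789 CPM) far above Con 2 (63.2 CPM) and Con 3 (101 CPM). The Hox profile and the UA+DSS treatment therefore cannot be told apart in these groups. The distal Hox genes also summed to 470 to 622 CPM in DSS+UA, above each DSS library (95.6 to 324 CPM). The Hox profile and UA therefore cannot be told apart in DSS+UA against DSS either.

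Per kilobase of exon (RPKM), the levels in Con were highest for the regulators. Irgm2 had 22.03 ± 11.9, Igtp 21.5 ± 11.1 and Irgm1 17.9 ± 7.91 RPKM (SD, n = 3). Gbp2 followed with 15.001 ± 3.47 RPKM, Gbp3 with 9.37 ± 4.04, Iigp1 with 6.82 ± 2.80 and Gbp7 with 5.09 ± 0.549. Gbp5 with 0.923 ± 0.156 and Gbp6 with 0.792 ± 0.419 RPKM lay lowest. Neighbours in this order overlapped in their Con libraries, except that Gbp7 lay above Gbp5 in each (lowest 4.69 RPKM against a highest of 1.09 RPKM).

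**Figure D1:**
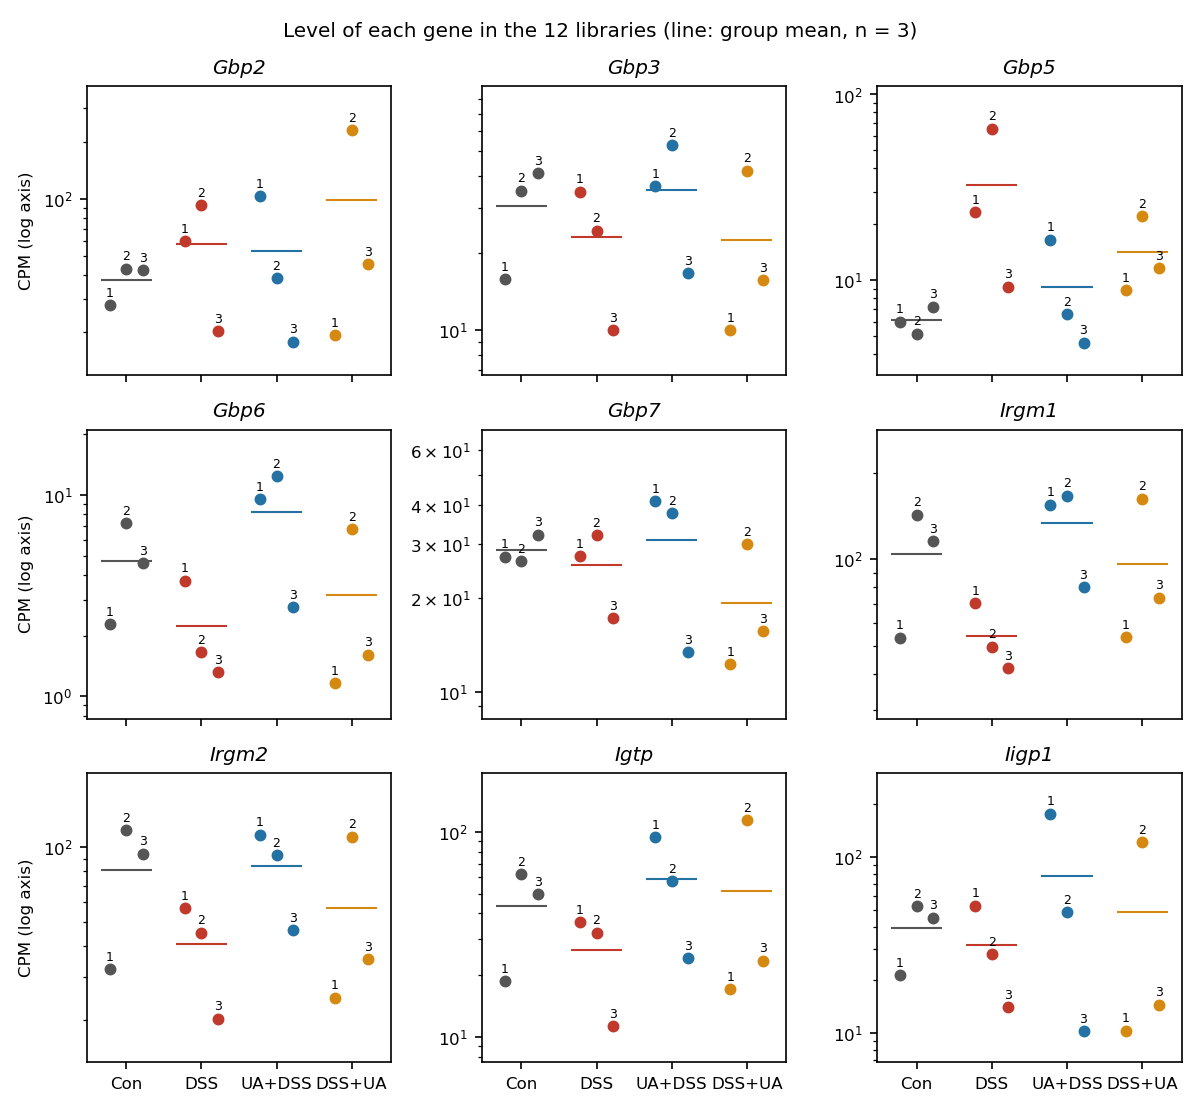
Level of each of the 9 genes in every library, in CPM on a log axis, by group. Points carry the replicate number and lines are the arithmetic group means (n = 3). DSS+UA 2 is the highest and DSS+UA 1 the lowest library of its group in all 9 panels, DSS 3 and UA+DSS 3 are the lowest of theirs, and only Gbp5 has all 3 DSS libraries above all 3 Con libraries.

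Gbp5 was the 1 gene of the 9 that edgeR called higher in DSS than in Con, a call that several of the alternative fits below did not keep. In Con the libraries had 6.00, 5.16 and 7.22 CPM, and in DSS 23.2, 65.3 and 9.24 CPM. All DSS libraries lay above all Con libraries, with a 7.07-fold range within DSS. In UA+DSS the levels were 16.6, 6.56 and 4.63 CPM, so that UA+DSS 1 lay above DSS 3 while the other 2 lay within or below the range of Con. In DSS+UA the levels were 8.85, 22.1 and 11.6 CPM, all above Con. The group means ran from DSS (32.6 ± 29.2 CPM, SD, n = 3) over DSS+UA (14.2 ± 6.98) and UA+DSS (9.25 ± 6.40) to Con (6.13 ± 1.04), and neighbours in this order overlapped in their libraries.

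edgeR's quasi-likelihood test, fitted to all 12 libraries with Benjamini-Hochberg adjustment over the 17658 tested genes, gave Gbp5 a log2 fold change of 2.41 ± 0.70 (SE; 95% interval 0.87 to 3.95; adjusted p = 0.0284) in DSS against Con. In that comparison 26.5% of all tested genes were called at an adjusted p under 0.05, so that 1 called gene of 9 is below the background share. Libraries did not overlap between DSS and Con for 1 of the 9 genes (Gbp5) and for 41.3% of all tested genes. The call did not hold without DSS 2, where the log2 fold change was 1.40 (adjusted p = 0.105), nor without Con 1 (adjusted p = 0.0755), Con 2 (0.0916) or Con 3 (0.0626), and it held without DSS 1 (0.0430) and without DSS 3 (0.00904). It was also lost with the replicate number as a block (log2 fold change 2.07, adjusted p = 0.0577), with limma-voom (0.0704), without a filter (0.0728) and in a fit of the 2 groups alone (0.0641), while DESeq2 gave 0.00122.

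Markers of several cell types were, like Gbp5, called higher in DSS than in Con. In DSS against Con edgeR called 26.5% of all tested genes, higher or lower. Of the 8 macrophage and monocyte markers, 5 were called higher in DSS than in Con by edgeR, and the 8 summed to 512 to 3115 CPM in DSS and to 105 to 198 CPM in Con. Of the 6 neutrophil markers 5 were called higher by edgeR and by limma-voom but 1 by DESeq2, with sums of 863 to 17231 and 9.26 to 114 CPM. In each Con library 1 to 3 of the 6 (among S100a8, S100a9, Retnlg and Cxcr2) were at 0. Of the 9 T and NK cell markers 4 were called higher by edgeR, 6 by DESeq2 and 2 by limma-voom, with sums of 36.6 to 105 and 16.6 to 28.4 CPM. DSS 2, the library with the highest Gbp5, had the highest sum of each of these 3 lists. The markers called higher were not of immune cells alone. Of the 5 endothelial markers 4 were called higher, with sums of 252 to 388 CPM in DSS and 140 to 188 CPM in Con, as were 4 of the 5 fibroblast markers (2664 to 5940 and 887 to 1547 CPM), 2 of 5 markers of B and plasma cells and 2 of 4 of dendritic cells. Endothelial and dendritic cell sums were also highest in DSS 2 (388 and 45.7 CPM). The fibroblast sum was highest in DSS 3 (5940 CPM), the DSS library with the lowest Gbp5. The sum for B and plasma cells was highest in DSS 1 (3020 CPM). Of the 8 epithelial markers 1 (Epcam) was called lower, and of the 5 smooth muscle markers 0 were called. Of the 6 pancreatic acinar markers edgeR called 5 higher, though only DSS 3 had a high sum (13658 CPM). DESeq2 and limma-voom called 0 of these 6. The part of these cells in the Gbp5 level was not tested, and in bulk RNA fewer cells of a type and less RNA per cell cannot be told apart.

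**Figure D2:**
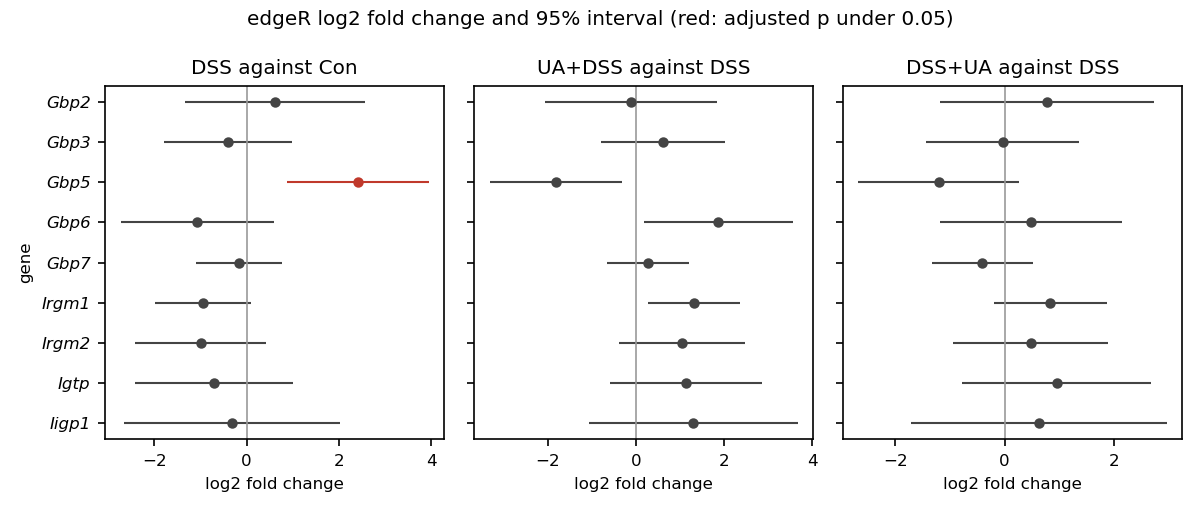
edgeR log2 fold changes of the 9 genes (points) with their 95% intervals (bars) in DSS against Con, UA+DSS against DSS and DSS+UA against DSS, from 3 libraries a group. Only Gbp5 in DSS against Con (red, 2.41) had an adjusted p under 0.05, and the intervals of Gbp5, Gbp6 and Irgm1 in UA+DSS against DSS also leave out 0.

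The other 4 GBPs did not pass the test in DSS against Con. Gbp2, which like Gbp5 acts in inflammasome activation, had 27.7, 43.1 and 42.5 CPM in Con and 59.99, 93.2 and 20.3 CPM in DSS. DSS 1 and DSS 2 lay above Con and DSS 3 below it, and the log2 fold change was 0.62 (95% interval -1.34 to 2.57, edgeR adjusted p = 0.629). Gbp3 had 15.8, 35.0 and 41.0 CPM in Con and 34.7, 24.4 and 9.98 CPM in DSS, with overlapping groups. Gbp7, the neighbour of Gbp5 on chromosome 3, had 27.3, 26.3 and 32.1 CPM in Con and 27.3, 32.0 and 17.2 CPM in DSS, and its log2 fold change was -0.16 (interval -1.09 to 0.76). Gbp6 had 2.28, 7.27 and 4.60 CPM in Con and 3.75, 1.65 and 1.32 CPM in DSS, where the uncertain assignment of its reads applies.

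The 3 regulators had log2 fold changes of -0.71 (Igtp) to -0.997 (Irgm2) in DSS against Con, none past the test. Irgm1 had 53.4, 143 and 116 CPM in Con and 70.5, 49.7 and 41.8 CPM in DSS (log2 fold change -0.95, interval -1.98 to 0.09, edgeR adjusted p = 0.155). Con 1 was the low library and lay within the DSS range. Irgm2 had 32.2, 117 and 94.4 CPM in Con and 56.6, 45.2 and 20.3 CPM in DSS. Igtp, which overlaps it, had 18.7, 62.3 and 49.7 CPM in Con and 36.4, 32.2 and 11.3 CPM in DSS. For both, Con 1 again lay among the DSS libraries. The effector Iigp1, at chr18:60376027-60392634 on the plus strand, had 21.3, 52.5 and 45.3 CPM in Con and 53.0, 28.2 and 14.0 CPM in DSS, with a log2 fold change of -0.32 whose interval ran from -2.66 to 2.01. Over the 9 genes the median log2 fold change was -0.41, against -0.034 over all tested genes, with 2 genes higher and 7 lower. The 8 epithelial markers had a median log2 fold change of -0.69 in the same comparison, with sums that overlapped between the groups, and their part in these values was not tested.

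Comparing UA+DSS with DSS addresses early UA. edgeR called 0 of the 9 genes, against 18.7% of all tested genes. At an unadjusted p under 0.05 there were 3 (Irgm1, Gbp5 and Gbp6), which DESeq2 also called, while limma-voom called 0. Of all 17658 tested genes, 6106 were at an unadjusted p under 0.05 and DESeq2 called 4497, so that 3 of 9 is near the background share. Irgm1 had 155, 167 and 80.02 CPM in UA+DSS, all above the highest DSS library (70.5 CPM), and its log2 fold change was 1.31 (interval 0.27 to 2.35, edgeR adjusted p = 0.0756). With a score of position along the colon, from the Hox genes, as a covariate it was 0.37 (adjusted p = 0.778). That fit called 3 of all 17658 tested genes in this comparison. Groups that did not overlap were found for 1 of the 9 genes and for 42.8% of all tested genes. Gbp5 had a log2 fold change of -1.82 (interval -3.32 to -0.32, adjusted p = 0.0852), and without DSS 3 it passed the test (-2.27, adjusted p = 0.0260). Over 15 alternative fits its log2 fold change ran from -2.54 to -0.82. The adjusted p was under 0.05 in 2 of them and reached 0.387. Gbp6, with 9.56, 12.4 and 2.76 CPM in UA+DSS, had a log2 fold change of 1.87 (interval 0.18 to 3.56, adjusted p = 0.109).

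The remaining regulators and the effector were widely spread in UA+DSS. Irgm2 had 112, 93.0 and 46.4 CPM and Igtp 94.2, 57.4 and 24.2 CPM there, with log2 fold changes against DSS of 1.04 and 1.14. Iigp1 had 176, 48.7 and 10.2 CPM, a 17.3-fold range within the group, and a log2 fold change of 1.30 with an interval from -1.06 to 3.67. Without UA+DSS 1 its log2 fold change was -0.11. Gbp2 had 104, 38.5 and 17.8 CPM, Gbp3 36.4, 52.8 and 16.6 CPM and Gbp7 41.1, 37.6 and 13.4 CPM. UA+DSS 3 was the lowest library for each of these 6 genes. The median log2 fold change of the 9 genes against DSS was 1.04, against -0.019 over all tested genes. Epithelial markers also had higher sums in UA+DSS than in DSS, where edgeR called 3 of the 8 higher (Car1, Epcam and Vil1), and their part was not tested. With the position score as a covariate, 0 of the 9 genes were called and Irgm2 and Gbp3 changed sign (log2 fold changes of -0.16 and -0.24). That fit called 3 of all 17658 tested genes, in place of 3300, so that 0 of 9 is near the background share.

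Comparing DSS+UA with DSS addresses UA given once colitis had begun. The groups share the DSS libraries with the comparison above. Each DSS+UA library also lay above all DSS libraries in the position score (4.11 to 5.06 against 0.366 to 3.10). The position score and late UA therefore cannot be told apart here. edgeR called 0 of the 9 genes, against 7.54% of all tested genes, with 0 at an unadjusted p under 0.05 and 0 by DESeq2 or limma-voom. With the position score as a covariate it called 0 of the 9 and 199 of all 17658 tested genes, in place of 1331. Libraries overlapped for all 9 genes, where 34.7% of all tested genes did not overlap. The median log2 fold change was 0.49, against 0.020 over all tested genes. One library carried the higher means. Gbp2 had 19.3, 231 and 45.5 CPM, a 12.0-fold range within DSS+UA, and Iigp1 had 10.3, 122 and 14.5 CPM, an 11.8-fold range. Igtp had 17.1, 114 and 23.6 CPM, Irgm2 24.7, 110 and 35.3 CPM and Irgm1 53.6, 163 and 73.5 CPM. Gbp3 had 10.01, 41.9 and 15.7 CPM, Gbp7 12.3, 29.9 and 15.7 CPM and Gbp6 1.16, 6.74 and 1.61 CPM. DSS+UA 2 was the highest library for all 9 genes, and without it the log2 fold changes against DSS were -0.88 for Gbp2, -0.43 for Igtp, -0.48 for Irgm2, -1.40 for Iigp1 and -0.74 for Gbp6, in place of 0.77, 0.95, 0.48, 0.62 and 0.49. Irgm1 was at 0.19 without it, in place of 0.84.

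Against Con, which shares its libraries with the first comparison, edgeR called 0 of the 9 genes in UA+DSS (0.00566% of all tested genes) and 0 in DSS+UA (18.1% of all tested genes), with 0 at an unadjusted p under 0.05 and 0 by DESeq2 and by limma-voom in both. Libraries did not overlap for 0 of the 9 genes in UA+DSS against Con (20.6% of all tested genes). They did not overlap for 1 in DSS+UA against Con (38.9% of all tested genes), which was Gbp5, with a log2 fold change of 1.21 and an edgeR adjusted p of 0.221. Between UA+DSS and DSS+UA edgeR, DESeq2 and limma-voom called 0 of the 9 genes (16.8% of all tested genes by edgeR), with 0 at an unadjusted p under 0.05, and 0 had groups that did not overlap (45.3% of all tested genes).

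Most of the variation lay between libraries of the same group. On the log2 CPM scale, groups accounted for a median of 21.7% of the variance of the 9 genes, from 5.64% (Gbp2) and 5.82% (Iigp1) to 42.3% (Irgm1) and 50.2% (Gbp5), against a median of 58.0% over all tested genes. The SD within groups was 0.607 (Gbp7) to 1.53 (Iigp1) log2 units with a median of 0.917, against a median of 0.371 over all tested genes. The same libraries were low or high for nearly all of the genes. DSS 3, UA+DSS 3 and DSS+UA 1 were each the lowest of their group for 9 of 9 genes, where they were the lowest for 32.7%, 30.5% and 35.4% of all tested genes. DSS+UA 2 was the highest for 9 of 9 (37.6% of all tested genes), and UA+DSS 1 for 6 and UA+DSS 2 for the other 3. Con 1 was the lowest for 7 of 9, the exceptions being Gbp5 and Gbp7.

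Over the 12 libraries, Pearson's r between the log2 CPM of 2 of the genes had a median of 0.78 over 36 pairs, as a description of libraries that share their groups and scaling. It was highest for Irgm2 and Igtp (0.96), which share exon bases, and lowest for Gbp5 and Irgm1 (-0.17). Gbp5 stood apart from most of the others, with r of -0.13 with Gbp6, 0.03 with Irgm2, 0.17 with Gbp3, 0.21 with Igtp, 0.33 with Iigp1 and 0.34 with Gbp7. Its r with Gbp2 was 0.70.

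**Figure D3:**
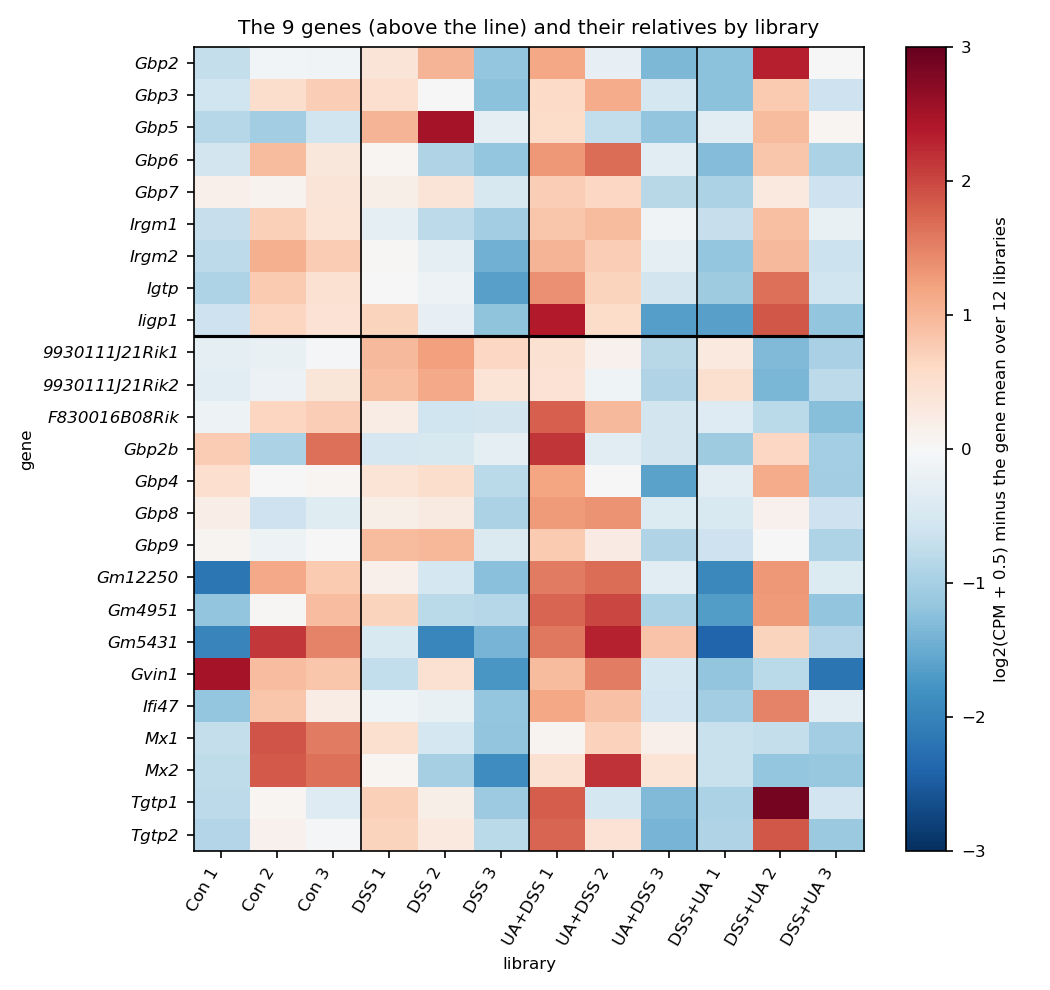
Log2(CPM + 0.5) of the 9 genes (above the thick line) and of their measured relatives with a mean of at least 1 CPM (below it), minus each gene's mean over 12 libraries. Columns are libraries by group, red is above and blue below the gene's mean. DSS+UA 2 and UA+DSS 1 are red and DSS 3 and DSS+UA 1 blue for most of the 9 genes, while Gbp5 is highest in DSS 2.

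Gbp5 was also set against each of the other 8 genes within a library, a reading chosen after the values were seen and given without a test. All these ratios of levels per kilobase share Gbp5, whose own libraries do not overlap between Con and DSS. Against Gbp7 the ratio was 0.186, 0.166 and 0.190 in Con and 0.718, 1.73 and 0.454 in DSS. In UA+DSS it was 0.340, 0.148 and 0.292, and in DSS+UA 0.610, 0.624 and 0.628. The DSS+UA libraries, which differed 2.496-fold in Gbp5 itself, lay close together in this ratio and apart from Con, but Gbp7 gave the narrowest range of the 8. Against Gbp2 the ratio in DSS+UA was 0.174, 0.0362 and 0.0971, and against Iigp1 it was 0.752, 0.159 and 0.706. Both ranges were wider than that of Gbp5 itself and overlapped Con (0.0454 to 0.0822 and 0.0863 to 0.247). A ratio shows unequal levels and not which of the genes moved.

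The effector Iigp1 was set against the regulator Irgm1 in the same way. The ratio was 0.398, 0.366 and 0.390 in Con, 0.751, 0.565 and 0.334 in DSS, 1.13, 0.291 and 0.127 in UA+DSS and 0.192, 0.747 and 0.196 in DSS+UA. It was nearly constant in Con and had its widest range in UA+DSS. In UA+DSS and DSS+UA it was highest in UA+DSS 1 and DSS+UA 2, the libraries of these groups with the most Iigp1.

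**Figure D4:**
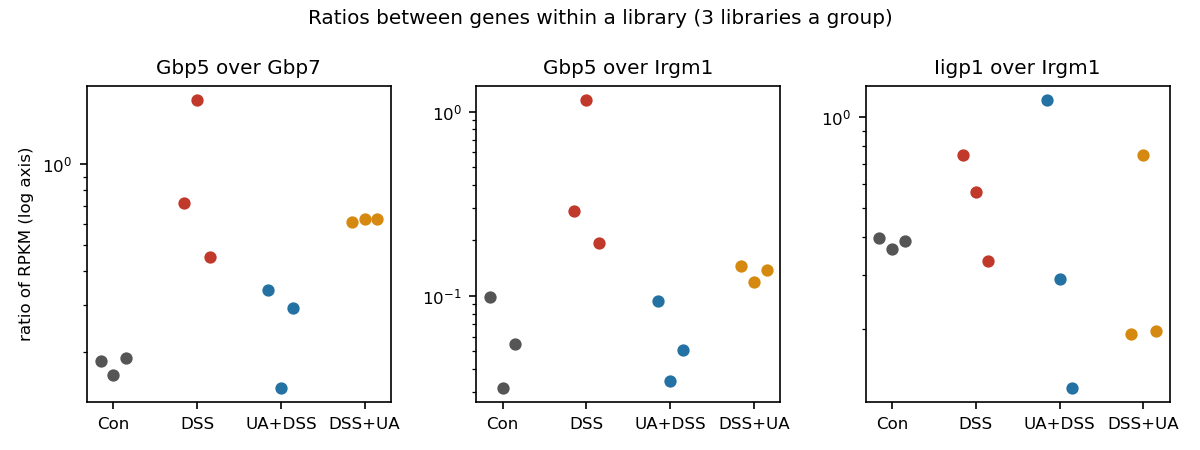
Ratios of RPKM (log axes) of Gbp5 over Gbp7, Gbp5 over Irgm1 and Iigp1 over Irgm1 in each library, by group (3 points each). Gbp5 over Gbp7 is 0.166 to 0.190 in Con and 0.610 to 0.628 in DSS+UA, while Iigp1 over Irgm1 runs from 0.127 to 1.13 within UA+DSS.

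Outside the 9 genes, the 5 tested genes with the profile most like their mean over the 12 libraries were B2m (r = 0.97), the light chain of MHC class I, Ifi47 (0.95), another IRG, Tap1 (0.94), which carries peptides to MHC class I, and Gm12185 (0.94) and Gm4841 (0.93). B2m had 695, 1246 and 1237 CPM in Con and 1105, 947 and 534 CPM in DSS. In UA+DSS it had 1634, 1757 and 786 CPM, and in DSS+UA 628, 1810 and 692 CPM. Tap1 had its highest level in DSS+UA 2 (199 CPM) and its lowest in DSS 3 (30.2 CPM), as Ifi47 did (135 and 20.9 CPM).

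Of 19 other interferon-inducible GTPases 17 were tested. edgeR called 0 in DSS against Con, with 5 at an unadjusted p under 0.05, 5 called by DESeq2 (1 higher, 4 lower) and 1 by limma-voom (lower). Of all 17658 tested genes 7161 were at an unadjusted p under 0.05 there, and DESeq2 called 5712 and limma-voom 4607. edgeR called 0 in UA+DSS against DSS (3 at an unadjusted p under 0.05, 2 by DESeq2, 0 by limma-voom) and 0 in DSS+UA against DSS (3, 1 and 1). Over all tested genes edgeR called 26.5%, 18.7% and 7.54% in these 3 comparisons. The median log2 fold changes of the relatives were -0.62, 1.07 and 0.035, against -0.034, -0.019 and 0.020 over all tested genes. In DSS+UA against Con, edgeR called 2 of the 17, both lower, which is below the 18.1% of all tested genes. They were Gvin1 and Mx1, an antiviral GTPase (log2 fold changes of -3.12 and -2.23, edgeR adjusted p = 0.0244 and 0.0337). DESeq2 called 4 lower, limma-voom 1, and edgeR with the position score as a covariate 1. For Mx1, Con 1 (3.62 CPM) lay within the range of DSS+UA (2.77 to 3.74 CPM). In UA+DSS against DSS+UA edgeR called 1 of the 17, which was higher, below the 16.8% of all tested genes. DESeq2 called 4 there and limma-voom 0. UA+DSS 3 was the lowest library of its group for 15 of the 17 and DSS 3 for 13 of the 17. DSS+UA 1, the lowest of its group for all 9 genes, was the lowest for 6 of these 17 and the highest for 6, and DSS+UA 2 was the highest for 11 and the lowest for 3.

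Of the interferon gamma pathway, 10 of 11 genes were tested. Ifng, the ligand, was too low to test, with 0 to 0.928 CPM. Its highest levels were in DSS+UA 2 (0.928 CPM, 15 counts) and UA+DSS 1 (0.7699 CPM, 12 counts), the libraries with the highest sums of the 9 genes (841 and 746 CPM). The next was Con 1 (0.465 CPM, 9 counts), whose sum of the 9 genes was low (205 CPM), while Con 2 and Con 3, with sums of 492 and 432 CPM, had 3 and 1 counts of Ifng. Irf1, a transcription factor of the pathway, had an r of 0.83 with the mean of the 9 genes. Its log2 fold change in DSS against Con was -0.50, and it did not pass the test. Jak1, the receptor-bound kinase, was the 1 gene of the 10 that edgeR called in a comparison. It rose in DSS against Con (log2 fold change 0.88, edgeR adjusted p = 0.00431), where 26.5% of all tested genes were called. It fell in UA+DSS against DSS (-0.52, adjusted p = 0.0441), where 18.7% of all tested genes were called. With the position score as a covariate 0 of the 10 were called in UA+DSS against DSS, as were only 3 of all 17658 tested genes. The r of Jak1 with the 9 genes was -0.02.

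**Figure D5:**
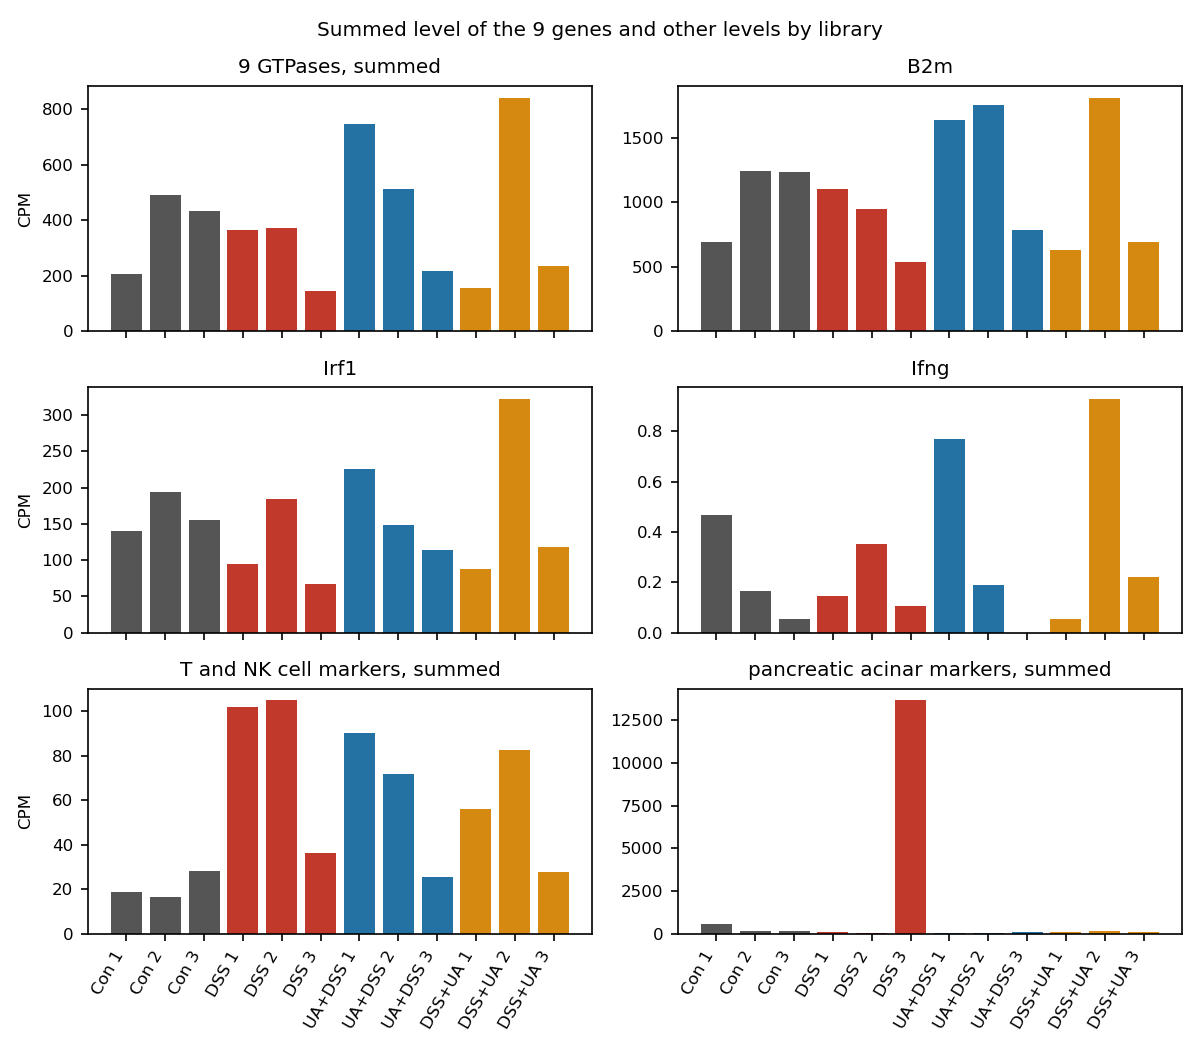
CPM in each library (bars, coloured by group) of the 9 genes summed, B2m, Irf1, Ifng, the summed T and NK cell markers and the summed pancreatic acinar markers. DSS+UA 2 is the highest library for the 9 genes (841 CPM), B2m, Irf1 and Ifng, and DSS 3 is the lowest for the 9 genes (145 CPM), B2m and Irf1, while its acinar markers sum to 13658 CPM.

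T and NK cells are a main source of interferon gamma, and their 9 markers summed to 102, 105 and 36.6 CPM in DSS, 90.3, 71.7 and 25.5 CPM in UA+DSS, and to 56.2, 82.5 and 27.8 CPM in DSS+UA. DSS 3, UA+DSS 3 and DSS+UA 3 were the lowest of their groups in these markers. DSS 3 and UA+DSS 3 were also the lowest for the 9 genes, but DSS+UA 3 was not. In Con the sums were 18.8, 16.6 and 28.4 CPM, so that Con 2, with a sum of the 9 genes of 492 CPM, had fewer marker counts than DSS 3, with 145 CPM. The part of these cells in the levels was not tested.

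Among receptors of the type I and III interferons, Ifnar1 and Ifnar2 rose in DSS against Con (log2 fold changes of 0.94 and 2.28, edgeR adjusted p = 0.0178 and 0.00300), 2 of 10 tested genes of 13 listed, below the 26.5% of all tested genes. Both fell in DSS+UA against DSS (-0.94 and -1.64, adjusted p = 0.0445 and 0.0276), where 7.54% of all tested genes were called. Ifnar2 fell in UA+DSS against DSS (-2.00, adjusted p = 0.0101), where 18.7% of all tested genes were called. With the position score as a covariate edgeR called 0 of the 10 in both comparisons. Of all 17658 tested genes that fit called 199 in DSS+UA against DSS and 3 in UA+DSS against DSS. The r of Ifnar1 and Ifnar2 with the mean of the 9 genes was 0.06 and 0.01.

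IRG and GBP proteins need the autophagy conjugation system to be placed on vacuoles. Of its 10 genes, all tested, edgeR called 2 in DSS against Con, below the 26.5% of all tested genes. Atg3 was higher and Atg12 lower (log2 fold changes of 0.57 and -0.56, edgeR adjusted p = 0.0185 and 0.0301). In UA+DSS against DSS it called 1, Atg12, which was higher (0.75, adjusted p = 0.0160), against 18.7% of all tested genes. With the position score as a covariate it called 0 there, and 3 of all 17658 tested genes. edgeR called 0 of the 10 in DSS+UA against DSS, with 3 at an unadjusted p under 0.05, 1 called by DESeq2 and 0 by limma-voom.

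Of 8 genes of cytosolic surveillance, with which Gbp2 and Gbp5 act, 5 were called in DSS against Con by edgeR, against 26.5% of all tested genes. Il1b, an inflammasome substrate, and Nlrp3, an inflammasome sensor, rose (edgeR adjusted p = 0.00332 and 0.00554), although DESeq2 gave no adjusted p for either. Casp1, the inflammasome protease, Pycard, its adaptor, and Aim2, a DNA sensor chosen after its values were seen, fell, by log2 fold changes of -1.39, -1.42 and -0.92 (adjusted p = 0.0187, 0.00519 and 0.0157). The part of the epithelial markers, of which Epcam also fell, in these 3 genes was not tested. Il1b had 0.44 to 1.60 CPM in Con and 120, 3011 and 150 CPM in DSS, so that DSS 2 was highest for Il1b as for Gbp5. In UA+DSS against DSS, Casp1 and Pycard rose and Il1b and Nlrp3 fell, where 18.7% of all tested genes were called. In DSS+UA against DSS the 1 gene called was Pycard, which rose, against 7.54% of all tested genes. With the position score as a covariate edgeR called 0 of the 8 in both comparisons. Of all 17658 tested genes that fit called 3 in UA+DSS against DSS and 199 in DSS+UA against DSS. Casp4, which GBPs help to activate and which was chosen after its values were seen, followed the libraries of the 9 genes (r = 0.84) and was not called in these 3 comparisons.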

How the data were processed

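Total RNA of the colon was sequenced for 12 libraries, grouped by their labels into Con, DSS, UA+DSS and DSS+UA (n = 3). The files deposited by the authors hold unnormalized whole-number counts for each Ensembl gene, made from reads mapped to GRCm38 with HISAT2. The labels name Trizol and the methods RNeasy for extraction. Strand use and the treatment of multiply matching reads were not given in the sources used here. Genes were named with GENCODE on GRCm38, and the 123 unnamed ones held 0.0297% of the counts.

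Counts were filtered with filterByExpr, scaled by TMM and fitted as 1 robust quasi-likelihood model in edgeR 4.0.16 (R 4.3.3), with p-values adjusted by Benjamini-Hochberg across the 17658 genes and called under 0.05. The fit was tested on simulated data. P-values measure only the spread between these libraries. Log2 CPM for correlations and variances used a prior count of 2. Alternatives were library size or upper-quartile scaling, DESeq2 1.42.0, limma-voom (limma 3.58.1), no filter, at least 10 counts in every library, a fit of the 2 groups, the replicate number as a block, a colon position score (mean log2 CPM of distal minus proximal Hox genes) and leaving out each library. Same-numbered libraries did not deviate together, so the numbers were not used as pairs.

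All 9 genes are named. From each other list the up to 3 genes with the smallest p in DSS against Con, UA+DSS against DSS or DSS+UA against DSS may be named, with Ifng and Irf1 always, and the 5 genes most correlated with the mean standardized log2 CPM of the 9. Casp4, Aim2, Stat2 and the relatives drawn in the heatmap were chosen after their values were seen. The genes and lists were chosen with earlier results of these data known. The result for 1 gene that this rule takes is not reported here.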

Additional observations from a re-analysis of the deposited data

How the results depend on the processing

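The count of the 9 genes called in DSS against Con (1) became 0 with limma-voom, with no filter, in the fit of the 2 groups and with the replicate block, and it ranged from 0 to 1 over the fits that left out a library. The count in UA+DSS against DSS (0) became 3 with DESeq2 and ranged from 0 to 1 without a library, where the 1 was Gbp5 without DSS 3. The counts of the other 4 comparisons stayed at 0 under every alternative run. Same-numbered libraries of different groups had correlations of -0.216 to 0.187 in their deviations, so the replicate block pairs libraries that share only a number, and it changed no other call.

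Log2 fold changes that changed sign were all of values that did not pass the test. With the replicate block they were 0.0461 for Gbp2 in UA+DSS against DSS, -0.0281 for Gbp7 in UA+DSS against Con, and -0.11 for Igtp and -0.25 for Iigp1 in DSS+UA against Con. With limma-voom they were -0.13 for Iigp1 in DSS+UA against DSS, -0.0792 for Gbp7 in UA+DSS against Con, and -0.13 for Igtp and -0.54 for Iigp1 in DSS+UA against Con. With the position score they were -0.24 for Gbp3 and -0.16 for Irgm2 in UA+DSS against DSS, and 0.25 for Gbp3 in DSS+UA against DSS. Against Con they were -0.33 for Gbp3, -0.24 for Irgm1, -0.66 for Irgm2 and -0.24 for Igtp in UA+DSS, and 0.16 for Gbp3, 0.17 for Gbp6, 0.59 for Irgm1 and 0.40 for Irgm2 in DSS+UA. In UA+DSS against DSS+UA they were -0.49 for Gbp3, -0.00926 for Gbp6, -0.83 for Irgm1, -1.07 for Irgm2, -1.32 for Igtp and -0.23 for Iigp1. The causes were not tested.

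Over the fits without a library, log2 fold changes of both signs ranged in DSS against Con from -0.36 to 0.0546 for Gbp7 and from -0.91 to 0.0346 for Iigp1. In UA+DSS against DSS they ranged from -1.04 to 0.41 for Gbp2 and from -0.11 to 1.89 for Iigp1. In DSS+UA against DSS they ranged from -0.88 to 1.31 for Gbp2, -0.89 to 0.40 for Gbp3, -0.74 to 1.10 for Gbp6, -0.48 to 0.86 for Irgm2, -0.43 to 1.38 for Igtp and -1.40 to 1.23 for Iigp1. In UA+DSS against Con they ranged from -0.42 to 0.91 for Gbp2, -0.20 to 0.55 for Gbp3, -0.13 to 0.91 for Gbp5, -0.16 to 0.46 for Gbp7, -0.33 to 0.41 for Irgm2, -0.0909 to 0.80 for Igtp and -0.43 to 1.499 for Iigp1. In DSS+UA against Con they ranged from -0.22 to 1.89 for Gbp2, -0.71 to 0.20 for Irgm1, -1.10 to 0.68 for Igtp and -1.67 to 0.80 for Iigp1. In UA+DSS against DSS+UA they ranged from -1.81 to 0.70 for Gbp2, -0.34 to 1.51 for Igtp and -0.73 to 2.64 for Iigp1.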

Other observations

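Irf7, the transcription factor that amplifies type I interferon, had an r of 0.58 with the mean of the 9 GTPases over 12 libraries. It had 60.2, 620 and 419 CPM in Con, 108, 66.4 and 44.2 CPM in DSS, 234, 662 and 303 CPM in UA+DSS, and in DSS+UA it had 29.9, 107 and 97.6 CPM. Within Con, DSS and DSS+UA its libraries had the same order as the mean of the 9 GTPases, and within UA+DSS they did not. All DSS+UA libraries, DSS+UA 2 among them, lay below those of UA+DSS, where 45.3% of all tested genes did not overlap between these groups. The position score was -5.70 to -4.16 in UA+DSS and 4.11 to 5.06 in DSS+UA. Irf7 did not pass edgeR's test in DSS against Con (log2 fold change -2.33, adjusted p = 0.0501) or in UA+DSS against DSS (2.45, adjusted p = 0.0529). Mx1, an antiviral GTPase, had 3.62, 24.5 and 19.4 CPM in Con and 3.74, 3.59 and 2.77 CPM in DSS+UA, so that Con 1 was low for both genes. Con 1 was also the library with the highest sum of distal colon Hox genes (789 CPM). With the position score as a covariate, edgeR called 0 of the 10 tested genes of the type I and III interferon list, which holds Irf7, in UA+DSS against DSS. It called 3 of all 17658 tested genes there, in place of 3300 without the covariate. In DSS+UA against Con it called 0 of the 10 both with the covariate and without it. These counts cannot decide the part of colon position in these levels, which was not tested. Stat2, chosen after its values were seen, had 40.7, 105 and 91.5 CPM in Con and 26.6, 49.1 and 36.6 CPM in DSS+UA.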
